A study of Homo sapiens with 2 samples.

Results

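Island shores are the stretches of DNA that flank CpG islands. The shores described here lie in introns or between genes, in rows of the deposited annotation that carry no promoter name. They were chosen by annotation and depth alone: autosomal shore positions with at least 10 reads in both libraries, grouped in windows of 1000 bp with at least 3 such CpGs. This gave 24335 windows, 18579 intronic and 5756 intergenic, which is 14.4% of the 168448 autosomal windows built the same way. They held 222643 CpGs, flanked 14410 islands and had 9884 different host genes (intronic) or nearest genes (intergenic). A window held a median of 7 CpGs over 215 bp. The table gives a few CpGs as 2 neighbouring positions, read on either strand: 678 such pairs lay in 159 windows and are counted below as separate CpGs. With each pair counted once, a window held at most 78 CpGs, the median was unchanged at 7, and 20 windows held fewer than 3.

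The cells were SH-SY5Y, an established human neuroblastoma line with features of sympathetic neurons. Cells given Mdivi-1 were set against cells given DMSO, the solvent control, with no dose or time in the labels. Mdivi-1 is a quinazolinone known as a blocker of mitochondrial fission that targets the GTPase DRP1. Each group had a single library of captured, bisulfite-converted DNA, so the differences below lack a replicate check and none is tested over samples.

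In mammalian genomes most CpGs are methylated, while CpG islands at active promoters are usually free of methylation. Between these states lies the shore, where methylation commonly climbs with distance from the island and often differs between cell types. Islands inside genes or far from genes are less uniform: some are methylated, and some act as alternative promoters or lie at enhancers of developmental genes.

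Of 236553 shore CpGs that met the rule, 339 were left out because whole reads could not be recovered from the deposited fractions. A further 13571 CpGs were left out because they fell in 9222 windows of fewer than 3. Mean coverage in the windows was 51.7 reads in the Mdivi-1 library and 41.4 reads in the DMSO library. The 4491 CpGs whose shallower library had exactly 10 reads, just inside the limit, averaged 45.1% methylation in the Mdivi-1 library and 44.8% in the DMSO library. The 4199 CpGs with 9 reads, just outside it, averaged 45.1% in the Mdivi-1 library and 44.6% in the DMSO library.

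The annotation itself was checked against CpG density. Windows had a median of 2.26 CpGs per 100 bp and their islands 9 per 100 bp. Among 12755 windows that spanned at least 200 bp, 114 (0.894%) were at least as CpG-dense as the island they are assigned to. These windows carry the shore label although they are as CpG-rich as an island. The absence of a promoter name also has a limit. The promoter column named a gene for 100% of positions annotated as upstream of a gene, but for 18.3% of intronic and 10.9% of intergenic positions, so intronic shores just inside a gene's start can be among the windows.

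The first question was how methylated these shores are in each library. Shore windows spanned the whole range of methylation, with most intronic windows in the lowest or the highest class. The mean level was 46.8% in the Mdivi-1 library and 46.3% in the DMSO library. By the mean of both libraries, 8174 windows (33.6%) were under 20%, 9031 (37.1%) were at 20 to 80% and 7130 (29.3%) were at 80% or more. Intronic windows averaged 48.4% in the Mdivi-1 library and 47.9% in the DMSO library. Intergenic windows averaged 41.6% in the Mdivi-1 library and 41.1% in the DMSO library. Highly methylated windows made up 32.8% of intronic and 18.0% of intergenic windows, and intermediate ones 33.9% of intronic and 47.6% of intergenic windows. Intermediate windows were mixed within themselves: the median SD among the CpGs of such a window was 27.3 points in the Mdivi-1 library and 27.2 points in the DMSO library.

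**Figure D1:**
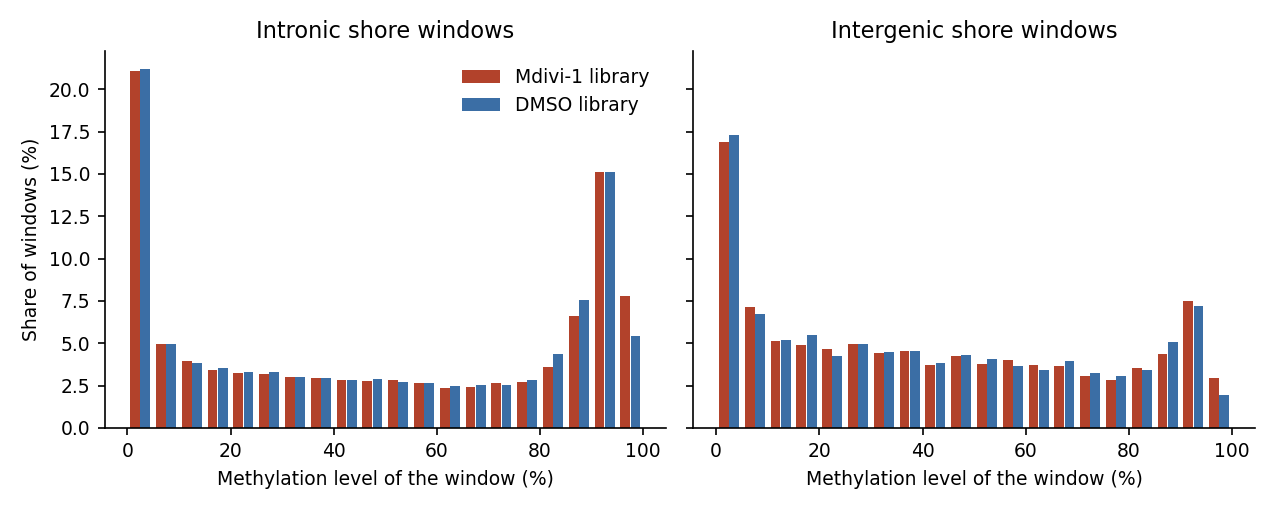
Share of shore windows (vertical axis, percent) by methylation level (horizontal axis, percent, in steps of 5) for intronic windows on the left and intergenic windows on the right, with 1 bar per library. Intronic windows pile up at both ends, while intergenic windows hold fewer in the highest steps and more in between.

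Intergenic shores were less methylated the farther they lay from a gene. The 439 windows up to 2 kb from the nearest gene averaged 46.2% in the Mdivi-1 library and 45.9% in the DMSO library. The 2392 windows over 2 and up to 10 kb away averaged 44.0% and the 2113 windows over 10 and up to 50 kb away averaged 41.4% in the Mdivi-1 library, against 43.5% and 41.0% in the DMSO library. The 812 windows over 50 kb away averaged 32.2% in the Mdivi-1 library and 31.7% in the DMSO library. Among those most distant windows 45.7% were under 20%, against 31.9% of the windows nearest to genes.

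The level of a shore went with the kind and level of its island. Intronic shores of islands that carry a promoter name averaged 35.9% in the Mdivi-1 library and 35.5% in the DMSO library (8326 windows). Intronic shores of islands without a promoter name averaged 58.6% in the Mdivi-1 library and 58.0% in the DMSO library (9284 windows). Between genes the same 2 kinds were close together, at 43.3% in the Mdivi-1 library and 42.7% in the DMSO library beside promoter islands (533 windows), and 41.4% in the Mdivi-1 library and 41.0% in the DMSO library beside the others (4877 windows). Where the island itself was under 20%, 52.2% of 10385 shore windows were under 20% and 15.9% were at 80% or more. Where the island was at 80% or more, 74.3% of 5702 shore windows were at 80% or more and 5.45% were under 20%. At matched island level the kinds were ordered differently. Beside islands under 20%, intronic shores of promoter-named and other islands averaged 32.4% and 30.7% in the Mdivi-1 library. They averaged 41.2% and 39.5% at 20 to 80%, and 72.8% and 83.5% at 80% or more. Intergenic shores averaged 49.1% and 29.3%, 34.4% and 37.9%, and 56.9% and 72.9% in the same classes and library.

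The profile away from the island depended on the island's state. Beside unmethylated islands the shore climbed steeply: CpGs up to 500 bp from the nearest measured island position averaged 15.5% in the Mdivi-1 library and 15.4% in the DMSO library, and those from 1501 to 2000 bp averaged 53.5% in the Mdivi-1 library and 52.9% in the DMSO library. The islands themselves averaged 3.48% in the Mdivi-1 library and 3.44% in the DMSO library. Beside islands at 80% or more the direction was the opposite, with 84.8% in the Mdivi-1 library and 83.9% in the DMSO library in the nearest bin, and 76.0% in the Mdivi-1 library and 75.1% in the DMSO library in the farthest. Beside islands of intermediate level the shore was almost flat, with 41.3% in the Mdivi-1 library and 41.0% in the DMSO library in the nearest bin, and 38.1% in the Mdivi-1 library and 37.7% in the DMSO library in the farthest. The climb from an unmethylated island was thus far larger than any difference between the libraries at a given distance.

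**Figure D2:**
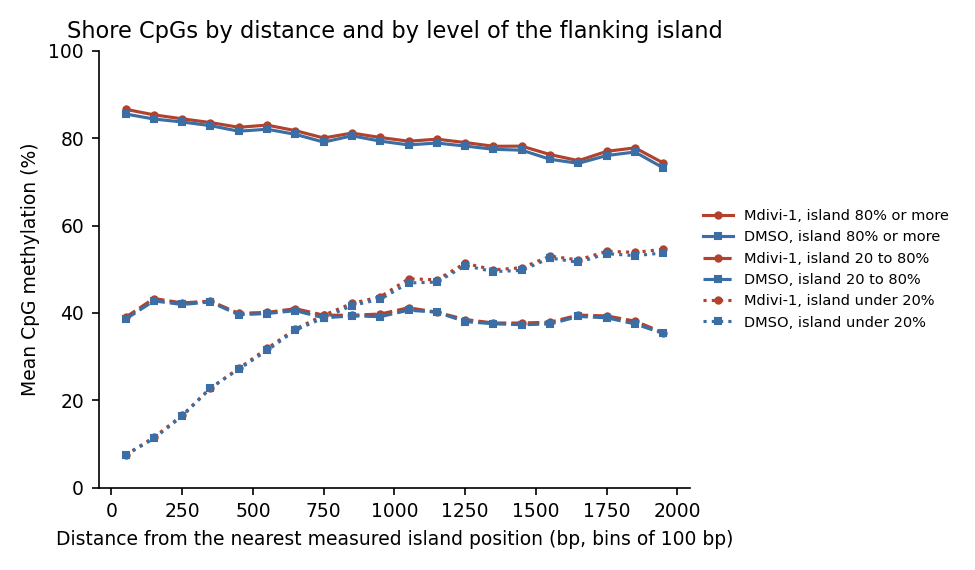
Mean CpG methylation (vertical axis, percent) against distance from the nearest measured island position (horizontal axis, bp), for islands at 80% or more, at 20 to 80% and under 20%, with the Mdivi-1 library as circles and the DMSO library as squares. The lines of both libraries lie almost on top of each other, and only the shores of islands under 20% climb.

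The 2 sides of an island were compared where both had shore windows, which was the case for 3353 islands. The sides differed by a median of 13.8 points in the Mdivi-1 library and 14.0 points in the DMSO library. They were at least 50 points apart at 410 islands (12.2%) in the Mdivi-1 library and at 393 islands (11.7%) in the DMSO library, and 372 islands were in both counts. Most islands with such unlike shores in the Mdivi-1 library thus had them in the DMSO library too.

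The comparison of Mdivi-1 with DMSO gave a small difference in favour of the Mdivi-1 library. The mean difference, Mdivi-1 minus DMSO, was 0.526 points over all windows, with a counting error of 0.0203 if every CpG is read independently and of 0.0531 if the same reads cover all CpGs of a window. The second, larger error is used below, a 95% counting interval is 1.96 such errors on either side, and both cover the counting of reads only, since reads may share a PCR origin and cultures vary. The Mdivi-1 library had the higher level in 13763 windows (56.6%) and the lower level in 10442, and 130 windows were equal. Among all 168448 autosomal windows, which include the shores, 58.1% were higher and the mean difference was 0.580 points. A difference of this kind was thus not particular to shores. Differences of shore windows had an SD of 3.83 points, and 85.2% of them lay within 5 points of zero. The levels in the libraries correlated across shore windows with Pearson's r of 0.994, as a description, since all windows share the same 2 libraries.

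The difference grew with the level of the window. It was 0.0949 points (counting error 0.0594) in windows under 20%, 0.615 (0.116) at 20 to 80% and 0.908 (0.0806) at 80% or more. All autosomal windows climbed alike, with 0.0913, 0.618 and 0.958 points in these classes. In narrower steps the difference of shore windows was highest at 80 to 90%, where windows averaged 86.4% in the Mdivi-1 library and 85.3% in the DMSO library. It was smaller again at 95 to 100%, with 96.4% in the Mdivi-1 library and 96.0% in the DMSO library. Intronic windows differed by 0.552 points (0.0587) and intergenic windows by 0.443 points (0.120). The gap between these was 0.110 points with a counting error of 0.134, so with shared reads the interval of the gap includes zero. With every CpG read independently the errors were 0.0226 for intronic and 0.0448 for intergenic windows. The interval of the gap was not computed with them, and this result can turn on the error chosen. The mean difference was above zero on all 22 autosomes, between 0.305 points on chromosome 22 and 0.704 points on chromosome 13, and its 95% counting interval excluded zero on 15 of them.

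**Figure D3:**
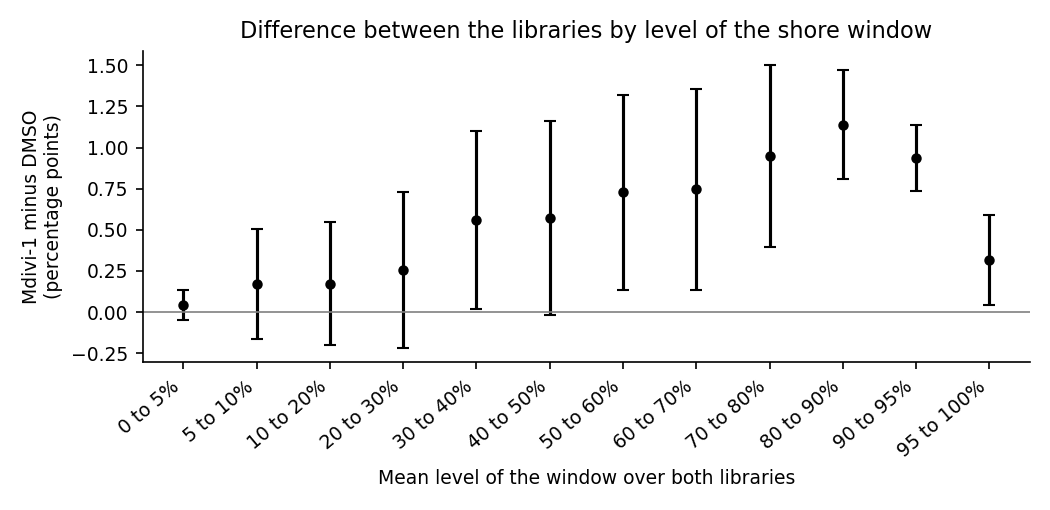
Mean difference of shore windows, Mdivi-1 minus DMSO in percentage points (vertical axis), by mean level of the window over both libraries (horizontal axis). Bars are 95% counting intervals with shared reads, and the points stay close to zero at low levels and lie highest at 80 to 90%.

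Shores were set beside other windows built by the same rule. Beside 0.526 points in the intronic and intergenic shores, the mean difference was 0.380 points in 20721 windows of island shores at promoters, 0.345 in 15815 windows of intronic and intergenic islands, 0.654 in 15858 windows of shelves and 0.686 in 53559 windows outside islands, shores and shelves. The shores minus islands contrast was 0.181 points (counting error 0.0829), and shores minus the windows outside was -0.159 points (0.0632), and both 95% counting intervals excluded zero. Shores minus promoter shores was 0.146 points (0.0750) and shores minus shelves was -0.128 points (0.0854), and both intervals included zero. At matched level class, the intervals of all 12 such contrasts included zero with shared reads, the widest contrast being -0.165 points (0.0907) against the windows outside at 80% or more. Intervals of the contrasts with every CpG read independently were not computed. At 80% or more that error was 0.0342 for shores (0.908 points) and 0.0196 for the windows outside (1.07 points). The result of this contrast thus turns on the error chosen, and so can that of others. Over all windows the independent error was 0.0203 for shores, 0.0185 for promoter shores and 0.0274 for shelves. Under 20% it was 0.0238 for shores and 0.0158 for islands (contrast 0.0651 points). At 80% or more it was 0.0419 for islands (contrast 0.132 points). Intervals that include zero with shared reads thus do not show that the differences are equal.

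Windows with a large difference were counted by a rule of size: a mean difference of at least 10 points with at least 80% of CpGs in its direction. By it, the Mdivi-1 library was higher in 275 shore windows (1.13%) and lower in 158 (0.649%). Among all autosomal windows, which include the shores, the shares were 0.986% higher and 0.576% lower, so the shares in shores are close to the background. At 20 to 80%, where 319 (73.7%) of the 433 shore windows lay, 2.17% were higher and 1.36% lower, against 2.08% and 1.36% of all autosomal windows at that level. At 80% or more, 0.926% were higher and 0.252% lower, against 0.678% and 0.219% of all. Under 20%, 0.159% were higher and 0.208% lower, against 0.163% and 0.155% of all.

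Most windows that met the rule were thinly covered. They held a median of 4 CpGs, with a median coverage of 27 reads in the Mdivi-1 library and 21.3 reads in the DMSO library, against 46.3 reads in the Mdivi-1 library and 37 reads in the DMSO library for all shore windows. Where the shallower library averaged 10 to under 20 reads, 3.58% of windows were higher and 2.37% lower. Where it averaged 60 reads or more, 0.104% were higher and 0.0519% lower. For 13 of the 433 windows the 95% counting interval with shared reads excluded zero, and 41 differed by 20 points or more. Over all 24335 shore windows this interval excluded zero for 16 (0.0657%), so it is a wide one.

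**Figure D4:**
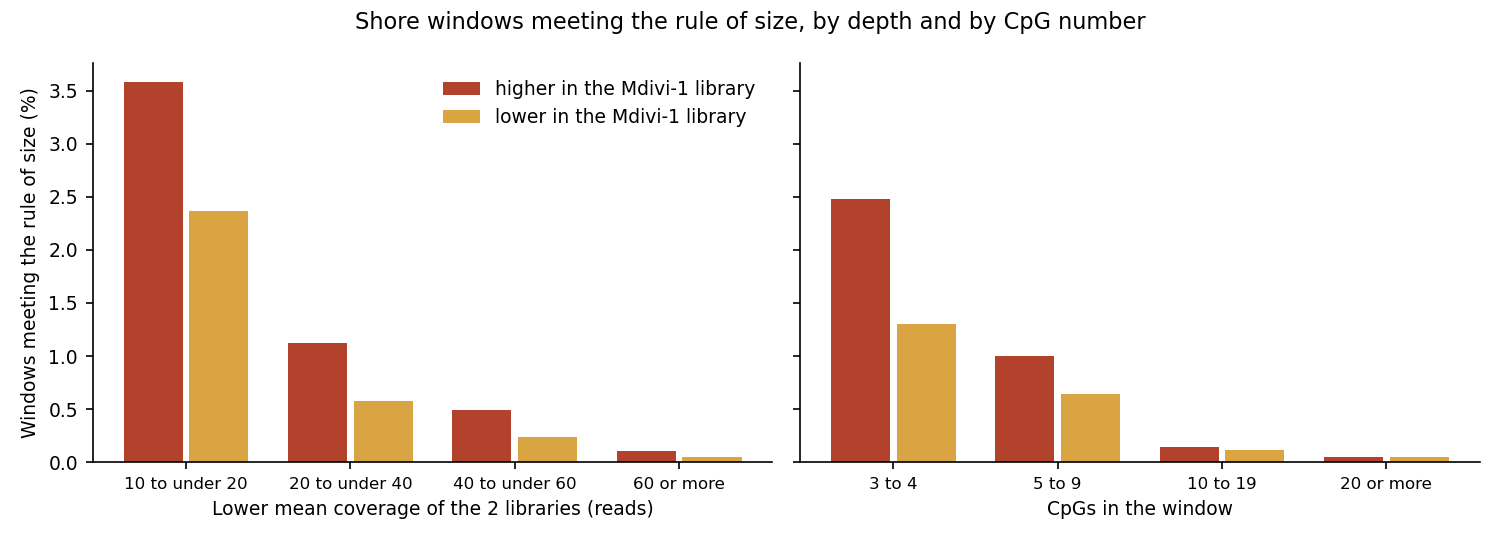
Share of shore windows that met the rule of size (vertical axis, percent), higher and lower in the Mdivi-1 library, by the lower mean coverage of the libraries on the left and by number of CpGs on the right. Both shares shrink with depth and with CpG number, from 3.58% and 2.37% in the shallowest windows to 0.104% and 0.0519% in the deepest.

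The DNA next to such windows seldom carried a difference of that size. Islands are counted here once per window, so an island with several shore windows is counted more than once. An island was measured beside 247 higher windows: for 5 it was at least 10 points higher and for 0 as much lower. The median difference of these islands was 0.249 points, against 0.176 points beside windows that did not meet the rule. Of 22242 such windows with a measured island, the island was at least 10 points higher for 96 and as much lower for 82. The share at least 10 points higher was thus larger beside higher windows, though it rests on 5 windows. Of the 145 lower windows with a measured island, the island was at least 10 points lower for 1 and as much higher for 0. The next shore window of 170 higher windows had a median difference of -0.06 points, and 4 of these neighbours were at least 10 points higher while 5 were as much lower. Of the 99 neighbours of lower windows, 5 were at least 10 points higher and 3 as much lower. Next to windows that did not meet the rule, 221 of 16085 neighbours were at least 10 points higher and 150 as much lower. Neighbours of windows that met the rule thus had larger shares in both directions, from few windows. Across an island, with both sides measured at 3353 islands, both shores were at least 10 points higher at 0 and as much lower at 0. In all, 95 islands had a shore that was higher and 56 a shore that was lower. Shores with such a difference were too rare for these counts of 0 to tell whether the sides move together.

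To describe single windows with enough reads, those with the 8 largest gains and the 8 largest losses were taken among windows that met the rule, held at least 5 CpGs and had a mean coverage of at least 20 reads in both libraries. This left 64 higher and 33 lower windows of 15487. They were picked for their difference, so their values are a description. No CpG in them had a Fisher exact adjusted p below 1 over all CpGs of the table.

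The largest gain was in an intron of AKAP12, which encodes a scaffold that anchors protein kinase A. Its 9 CpGs (chr6:151647040-151647140, hg19) ranged from 45.9% to 69.2% with a median of 60.6% in the Mdivi-1 library, and from 29.6% to 50% with a median of 36.8% in the DMSO library. All 9 CpGs were higher, but the ranges overlapped. The mean was 59.7% in the Mdivi-1 library and 37.6% in the DMSO library, a difference of 22.1 points with a counting error of 12.3 (4.11 if every CpG is read independently). The island beside it was at 41.1% in the Mdivi-1 library and 38.5% in the DMSO library.

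An intron of ZNF516, a zinc finger transcription factor gene, held 5 CpGs (chr18:74156829-74156974) of 65.3% to 76.5% in the Mdivi-1 library and 41.0% to 62.5% in the DMSO library. Here the groups of CpG values did not overlap, and the means were 69.2% in the Mdivi-1 library and 48.2% in the DMSO library. An intergenic window 1974 bp from RSRP1 (chr1:25566332-25566754) likewise did not overlap: its 8 CpGs were at 38.9% to 53.8% in the Mdivi-1 library and 22.7% to 35.3% in the DMSO library. Its means were 47.9% in the Mdivi-1 library and 27.8% in the DMSO library, while the adjoining island stood at 35.7% in the Mdivi-1 library and 35.3% in the DMSO library.

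The window of largest loss lay in an intron of NR2F1, an orphan nuclear receptor that acts in the developing nervous system. Its 11 CpGs (chr5:92924572-92924807) ranged from 22.2% to 40% with a median of 29.2% in the Mdivi-1 library, and from 45.5% to 75.0% with a median of 60.6% in the DMSO library. The ranges did not overlap, and each of the 11 CpGs was lower in the Mdivi-1 library. The mean was 30.6% in the Mdivi-1 library and 60.5% in the DMSO library, a difference of -29.9 points with a counting error of 13.8 (4.28 if every CpG is read independently). With shared reads, this window was alone among the 16 in having a 95% counting interval that excluded zero. Mean coverage was 27.2 reads in the Mdivi-1 library and 25.1 reads in the DMSO library.

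Nearby sequence at NR2F1 went the other way or moved less. The island beside that window was at 46.0% in the Mdivi-1 library and 49.98% in the DMSO library. The next window (chr5:92925034-92925766, 7 CpGs) was at 35.5% in the Mdivi-1 library and 28.5% in the DMSO library. An intergenic window 7573 bp from the gene (chr5:92937890-92937995) was among the largest gains, with 31.8% in the Mdivi-1 library and 14.9% in the DMSO library over 5 CpGs. Its neighbour of 38 CpGs (chr5:92938014-92938953) was at 45.1% in the Mdivi-1 library and 39.9% in the DMSO library.

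The other gains came to 15.04 to 16.4 points. CACNA1H, a gene for a T-type calcium channel subunit, had 63.2% in the Mdivi-1 library and 46.8% in the DMSO library over 5 intronic CpGs (chr16:1250578-1250634). TAF1C, which encodes a subunit of a transcription factor for RNA polymerase I, had 56.5% in the Mdivi-1 library and 40.2% in the DMSO library over 6 intronic CpGs (chr16:84219626-84219718). Its promoter island stayed low, at 1.54% in the Mdivi-1 library and 0.987% in the DMSO library. A window 82380 bp from SNAI2, a regulator of epithelial-mesenchymal transition, had 46.0% in the Mdivi-1 library and 30.2% in the DMSO library over 5 CpGs (chr8:49747709-49747777). An intron of TESC, the calcium-binding tescalcin gene, had 70.2% in the Mdivi-1 library and 55.1% in the DMSO library over 7 CpGs (chr12:117486061-117486270). In each of these 4 windows the CpG values of the libraries overlapped.

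Among the other losses was an intron of PC, which encodes the mitochondrial enzyme pyruvate carboxylase. Its 11 CpGs (chr11:66725333-66725448) were all lower, at 31.8% in the Mdivi-1 library and 45.3% in the DMSO library, a difference of -13.4 points with a counting error of 10.4. The CpG ranges overlapped, from 14.7% to 50.9% in the Mdivi-1 library and from 17.9% to 66.7% in the DMSO library. Coverage was unequal, at 62.5 reads in the Mdivi-1 library and 34.2 reads in the DMSO library.

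A window 60446 bp from RXRA, the retinoid X receptor alpha gene, had 19.8% in the Mdivi-1 library and 37.9% in the DMSO library over 5 CpGs (chr9:137392878-137392981). A window 6781 bp from CHKA, the choline kinase alpha gene, had 34.8% in the Mdivi-1 library and 52.3% in the DMSO library over 5 CpGs (chr11:67895639-67895683). The next window of that CHKA island, of 13 CpGs, was higher by 7.65 points, so neighbouring windows again did not move together. ARHGAP45, a GTPase-activating protein gene, had 45.5% in the Mdivi-1 library and 61.2% in the DMSO library over 6 intronic CpGs (chr19:1073590-1073660). PLCD3, a phospholipase C gene, had 37.6% in the Mdivi-1 library and 51.1% in the DMSO library over 5 intronic CpGs (chr17:43207491-43207659). AHRR, the aryl hydrocarbon receptor repressor gene, had 57.2% in the Mdivi-1 library and 70.1% in the DMSO library over 6 intronic CpGs (chr5:371012-371078).

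A window 76547 bp from RNU6-880P, a U6 RNA pseudogene, had 38.4% in the Mdivi-1 library and 53.5% in the DMSO library over 5 CpGs (chr1:43533761-43533808). Another window of the same island (chr1:43532506-43532685, 6 CpGs) had 39.6% in the Mdivi-1 library and 19.9% in the DMSO library, a gain of 19.7 points. This island thus held a shore window that met the rule in each direction.

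**Figure D5:**
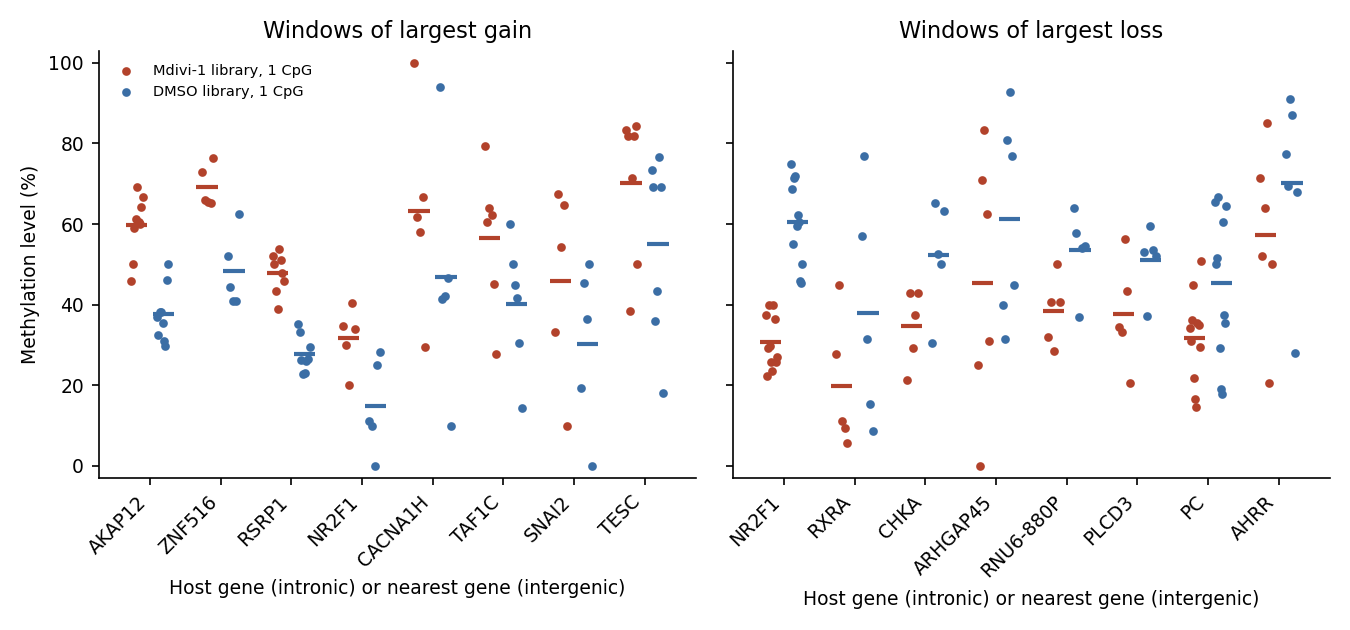
Methylation level of each CpG (vertical axis, percent; points) and mean of the window (lines) for the 8 shore windows with the largest gains on the left and the 8 with the largest losses on the right, by host or nearest gene, with the Mdivi-1 library left of the DMSO library. The intronic NR2F1 window, at 30.6% in the Mdivi-1 library and 60.5% in the DMSO library, shows the widest gap.

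The windows with the most CpGs in each level class were chosen without regard to their difference, and the differences of those given here ran from -1.20 to 1.84 points. In the intermediate class, an intron of KCNS3, a potassium channel modulator gene, had 23.8% in the Mdivi-1 library and 24.9% in the DMSO library over 60 CpGs (chr2:18060087-18060968). The window with the most measured positions, 92, lay 7088 bp from the cytochrome P450 gene CYP2F1 (chr19:41641374-41641995) and had 68.2% in the Mdivi-1 library and 67.8% in the DMSO library. These positions include 41 pairs from both strands and stand for 51 CpGs. They ran from 3.13% to 100% in the Mdivi-1 library and from 3.45% to 100% in the DMSO library, so the mixture within a window exceeded the gap between libraries. Another, 36961 bp from TIFAB (chr5:134825002-134825993, 67 CpGs), was at 78.7% in both libraries.

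Highly methylated windows of many CpGs included homeobox genes. An intron of HOXD3 had 94.4% in the Mdivi-1 library and 92.8% in the DMSO library over 61 CpGs (chr2:177029035-177029993). A window 4037 bp from TLX3 had 94.8% in the Mdivi-1 library and 94.3% in the DMSO library over 63 CpGs (chr5:170743180-170743977). A window 4243 bp from GBX2 had 96.8% in the Mdivi-1 library and 94.997% in the DMSO library over 57 CpGs (chr2:237081272-237081847). EHMT1, a histone methyltransferase gene, had 95.6% in the Mdivi-1 library and 95.04% in the DMSO library over 64 intronic CpGs (chr9:140704105-140704856). All 4 were slightly higher in the Mdivi-1 library, by 0.476 to 1.84 points.

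The unmethylated windows of many CpGs were low in both libraries. CTIF, a translation factor gene, had 1.19% in the Mdivi-1 library and 1.39% in the DMSO library over 78 intronic CpGs (chr18:46066069-46066995), beside an island of 202 bp. A different intronic window of AKAP12 had 2.49% in the Mdivi-1 library and 3.68% in the DMSO library over 65 CpGs (chr6:151562027-151562897). Windows near RNU4-67P, a U4 RNA pseudogene, and FOXD1, a forkhead gene, had 1.33% and 2.42% in the Mdivi-1 library, against 1.32% and 2.83% in the DMSO library, over 72 and 61 CpGs. These 4 windows are CpG-rich throughout and are assigned to islands of 202 to 240 bp.

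Genes were then grouped by 11 lists, with each shore window given to its host or nearest gene. A gene's level is the mean over the CpGs of all its shore windows. Over all 9884 genes the mean difference was above zero for 5774 and below zero for 4063, with a median of 0.348 points. Beside this, developmental homeobox genes had 35 above and 15 below (median 0.722), imprinted genes 19 and 5 (0.683), axon guidance genes 31 and 23 (0.476), and adrenergic neuroblastoma regulators 16 and 7 (0.423). HOX genes had 12 and 12 (0.0317), mesenchymal-state regulators 10 and 9 (0.0389), genes of mitochondrial dynamics 8 and 9 (-0.368), and genes of mitophagy and mitochondrial biogenesis 12 and 11 (0.477). DNA methylation enzymes and partners had 9 and 7 (0.0876), classic hypermethylated tumour suppressors 13 and 11 (0.115), and glutamate and GABA receptors 14 and 14 (-0.0774). These counts use any difference, with no test, and 27 of the 302 list entries turn direction if a gene's windows are weighted equally. By the rule of size, single lists held 0.322% to 3.45% higher and 0% to 3.33% lower windows, each from at most 3 windows, against 1.13% higher and 0.649% lower of all shore windows.

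Adrenergic regulators, a list of genes tied to the sympathetic state of neuroblastoma cells, mostly transcription factors, had shores from unmethylated to almost fully methylated. SIX3 shores averaged 93.9% in the Mdivi-1 library and 93.0% in the DMSO library over 8 windows. TFAP2B averaged 43.1% in the Mdivi-1 library and 43.3% in the DMSO library, with single windows between 1.03% and 95.4% in the Mdivi-1 library and between 0.319% and 96.9% in the DMSO library. By the rule of size, 3 of the 87 windows of this list (3.45%) were higher and 0 were lower, against 1.13% and 0.649% of all shore windows. They lay near EYA1, with 95.8% in the Mdivi-1 library and 82.9% in the DMSO library over 5 CpGs, and near SOX11, with 85.1% and 83.8% in the Mdivi-1 library against 72.8% and 70.7% in the DMSO library over 3 and 4 CpGs. Mesenchymal-state regulators, which mark the other neuroblastoma state, had 40 of 71 windows (56.3%) at 20 to 80%. The adrenergic regulators had 20 of 87 (23.0%), and all shore windows 37.1%. A high share was not particular to the mesenchymal list, since developmental homeobox genes had 54.3% and glutamate and GABA receptors 52.6%. NOTCH1 and SNAI2 alone held 13 and 10 of the 71 windows. NOTCH1 averaged 35.8% in the Mdivi-1 library and 35.7% in the DMSO library over 13 intronic windows, and PRRX1 averaged 48.4% in the Mdivi-1 library and 49.4% in the DMSO library.

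Genes of mitochondrial fission and fusion had 30 shore windows, 16 of them (53.3%) under 20%, against 33.6% of all shore windows. FIS1, which encodes an outer membrane adaptor of fission, averaged 8.45% in the Mdivi-1 library and 8.29% in the DMSO library over 2 windows. PGAM5, a mitochondrial phosphatase gene, averaged 83.1% in the Mdivi-1 library and 82.7% in the DMSO library. INF2, a formin gene whose product acts in fission at the endoplasmic reticulum, had a window that met the rule in each direction. Its window of 3 CpGs had 21.1% in the Mdivi-1 library and 51.5% in the DMSO library at a mean of 11.3 reads in the Mdivi-1 library and 12.3 reads in the DMSO library. Its window of 21 CpGs had 51.2% in the Mdivi-1 library and 39.3% in the DMSO library. Over the CpGs of all 6 windows INF2 averaged 56.2% in the Mdivi-1 library and 55.4% in the DMSO library, while the mean of the 6 window levels was 53.6% in the Mdivi-1 library and 59.0% in the DMSO library, so the direction turns with the averaging. In the mitophagy list, TOP1MT averaged 75.3% in the Mdivi-1 library and 74.8% in the DMSO library, ULK1 57.1% in the Mdivi-1 library and 55.8% in the DMSO library, and the mitophagy receptor gene BNIP3 10.1% in the Mdivi-1 library and 9.11% in the DMSO library. An SQSTM1 window of 3 CpGs met the rule, with 94.6% in the Mdivi-1 library and 83.1% in the DMSO library.

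Genes that write, read or remove DNA methylation had 27 of 49 windows (55.1%) at 80% or more, against 29.3% of all shore windows. UHRF1, which guides maintenance methylation, held 12 of the 49 windows. It averaged 89.8% in the Mdivi-1 library and 89.3% in the DMSO library. Its single windows lay between 80.1% and 97.8% in the Mdivi-1 library and between 76.9% and 96.6% in the DMSO library. TET1, a gene for an enzyme that oxidises methylcytosine, averaged 1.69% in the Mdivi-1 library and 1.15% in the DMSO library. ZBTB4 averaged 79.2% in the Mdivi-1 library and 78.8% in the DMSO library, and turned to 68.8% in the Mdivi-1 library and 69.0% in the DMSO library as a mean over windows. The single window that met the rule was in an intron of the methyltransferase gene DNMT3A, with 96.9% in the Mdivi-1 library and 80.2% in the DMSO library over 3 CpGs, a difference of 16.7 points with a counting error of 8.16.

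Within the HOX clusters, members went in both directions. HOXC4 averaged 60.4% in the Mdivi-1 library and 55.3% in the DMSO library over 9 windows, a difference of 5.04 points with a counting error of 3.61. HOXD3 averaged 87.2% in the Mdivi-1 library and 88.3% in the DMSO library, and its window of 26 CpGs that met the rule had 57.8% in the Mdivi-1 library and 69.0% in the DMSO library. HOXB3 averaged 18.9% in the Mdivi-1 library and 20.1% in the DMSO library. A window of 4 CpGs near HOXB13 met the rule with 22.1% in the Mdivi-1 library and 10.6% in the DMSO library. HOXC5 and HOXC6, named after their values were seen because they share a window with HOXC4, averaged 36.5% and 23.0% in the Mdivi-1 library, against 29.3% and 15.5% in the DMSO library, so these members are not independent. Among the other homeobox genes, EN1 averaged 28.3% in the Mdivi-1 library and 28.8% in the DMSO library, NKX2-5 35.7% in the Mdivi-1 library and 35.5% in the DMSO library, and PAX5 27.3% in the Mdivi-1 library and 26.3% in the DMSO library. A window of 5 CpGs that lay 11829 bp from EN1 met the rule, with 24.2% in the Mdivi-1 library and 12.9% in the DMSO library.

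Imprinted genes, which are expressed from the copy of a single parent, had 116 of 181 windows (64.1%) at 20 to 80%. The share of all shore windows was 37.1%, but 117 of the 181 windows lay in DLGAP2 alone. DLGAP2 averaged 37.0% in the Mdivi-1 library and 36.3% in the DMSO library, KCNQ1 38.5% in the Mdivi-1 library and 39.1% in the DMSO library, and TRAPPC9 55.9% in the Mdivi-1 library and 54.5% in the DMSO library. Windows of 3 CpGs that lay 50764 bp from SNRPN and 7338 bp from TRAPPC9 met the rule, with 54.0% and 76.6% in the Mdivi-1 library against 41.5% and 61.7% in the DMSO library. These genes are the nearest genes of the windows.

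Of the axon guidance genes, PLXNB2 averaged 81.7% in the Mdivi-1 library and 80.5% in the DMSO library, EPHB3 42.5% in the Mdivi-1 library and 40.5% in the DMSO library, and ROBO3 35.2% in the Mdivi-1 library and 34.4% in the DMSO library. An intronic window of the netrin gene NTN1 met the rule, with 84.4% in the Mdivi-1 library and 60% in the DMSO library over 3 CpGs. Of the receptor genes, GRIN1 averaged 42.3% in both libraries and, as a mean over windows, 40.9% in the Mdivi-1 library and 41.9% in the DMSO library, GRIK2 averaged 22.9% in the Mdivi-1 library and 23.8% in the DMSO library, and GRM6 averaged 39.0% in the Mdivi-1 library and 39.8% in the DMSO library. Of the 95 windows of that list 1 (1.05%) was higher, in GRIK5, and 3 (3.16%) were lower, against 1.13% and 0.649% of all shore windows, with the lower ones in GRIK5 and GABRA5 and near GRIN1, each of 3 or 4 CpGs. Of the tumour suppressors, MGMT averaged 64.5% in the Mdivi-1 library and 64.9% in the DMSO library, SFRP2 54.2% in the Mdivi-1 library and 57.1% in the DMSO library, and TP73 58.8% in the Mdivi-1 library and 58.0% in the DMSO library. An intronic TP73 window of 3 CpGs met the rule, with 91.2% in the Mdivi-1 library and 81.0% in the DMSO library.

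Single CpGs were compared by Fisher's exact test, two-sided, on methylated and unmethylated reads, which compares these libraries and not the conditions. With Benjamini-Hochberg adjustment over all 2523693 covered CpGs and a difference of at least 20 points, the Mdivi-1 library was higher at 2 shore CpGs and lower at 2, which is 0.000847% each. Over all CpGs of the table the higher ones numbered 10 (0.000396%) and the lower ones 6 (0.000238%). At an unadjusted p under 0.05, 1.54% of shore CpGs were higher and 0.917% lower, against 1.29% and 0.735% of all.

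The CpG of smallest p lay 6608 bp from MIR9901 (chromosome 16, position 33959437), with 45 of 157 reads methylated in the Mdivi-1 library and 40 of 46 in the DMSO library (adjusted p 5.75e-07). Depth there was very unequal. A CpG 11929 bp from WDR19 (chromosome 4, position 39172220) had 160 of 160 reads methylated in the Mdivi-1 library and 114 of 146 in the DMSO library (adjusted p 2.56e-06, Fisher's exact test). A CpG in an intron of AGAP3 (chromosome 7, position 150825087) had 64 of 64 in the Mdivi-1 library and 55 of 79 in the DMSO library (adjusted p 0.0158, Fisher's exact test). A CpG 3399 bp from TBX3 (chromosome 12, position 115104661) had 55 of 97 in the Mdivi-1 library and 47 of 47 in the DMSO library (adjusted p 0.000329, Fisher's exact test).

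The windows around these CpGs, whose means include the CpG itself, moved less or the other way. The TBX3 window of 33 CpGs was at 89.8% in the Mdivi-1 library and 86.1% in the DMSO library, the opposite direction to its called CpG. The AGAP3 window of 11 CpGs was at 96.6% in the Mdivi-1 library and 93.0% in the DMSO library, the same direction as its CpG. The MIR9901 window of 3 CpGs was at 25.3% in the Mdivi-1 library and 46.6% in the DMSO library, also the same direction, and alone met the rule of size. The WDR19 CpG lay in no window of at least 3 CpGs. No window held 2 called CpGs.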

How the data were processed

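Captured bisulfite reads of SH-SY5Y DNA (SureSelectXT Methyl-Seq kit, NovaSeq instrument, per the labels' protocols) were aligned with BSMAP to hg19, named without roles in the submitters' processing notes. The authors deposited, per position, a methylated fraction and a coverage (estimated counts of reads) for each library, the difference of the fractions, which was not used for levels, and annotation. DMSO fractions deposited by the authors were whole reads at 33.3% of positions at the deposited coverage, and at 100% after coverage was scaled by 1.23 and rounded (tolerance 1e-06), 1.23 being the Mdivi-1 median coverage of 37 reads over the DMSO median of 30. Whole methylated reads were recovered from this rescaling, which is read from the values and not stated in the sources used here. Of 2773807 positions 10795 (0.389%) were left out, 10751 for fractional coverage and 44 for no single count. Mdivi-1 fractions were whole as deposited.

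CpG levels were averaged per window of 1000 bp, with at least 3 CpGs and 10 reads in both libraries. Counting errors are binomial, for independent CpGs or for reads that cover a whole window and are wholly methylated or unmethylated. Fisher exact tests used Benjamini-Hochberg adjustment over all covered CpGs, with calls at adjusted p under 0.05 and 20 points. Named were the windows with the 8 largest gains and 8 largest losses among those of at least 5 CpGs and 20 reads, the 2 windows with the most CpGs per level class in introns and between genes, up to 3 members per gene list with the most shore CpGs, and the called CpGs. List members that met the rule of size are also named. A few items picked by these rules are not reported here. The members, lists and tests were chosen with earlier results of these data known. With 1 library per group no fit over samples was possible, and intervals cover counting error only. Island levels needed at least 3 measured island CpGs. Alternatives changed the coverage minimum, CpG minimum, window start, depth, size of difference and the way of averaging. Scripts were tested on simulated data. No genome sequence of build hg19 was used here. Python 3.11.15 ran all scripts, with pandas 2.3.3 for tables, NumPy 2.4.6 for read recovery, Numba 0.67.0 for exact tests and Matplotlib 3.10.9 for plots. SciPy 1.17.1 gave the normal quantile of the intervals and a check of the exact tests.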

Additional observations from a re-analysis of the deposited data

How the results depend on the processing

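The counts of shore windows that met the rule of size depended on depth and threshold. From 275 higher and 158 lower, they became 171 and 97 at a minimum of 20 reads, 104 and 68 with at least 5 CpGs per window, 73 and 44 at 15 points, 23 and 18 at 20 points, and 64 and 33 with at least 5 CpGs and a mean coverage of 20 reads, a set chosen after seeing the data. The first 2 and the last of these test fewer windows, and higher windows outnumbered lower ones under each. Pooled reads, shifted windows, equal depth, removal of the deepest 0.1% of CpGs, the deposited fractions and, added after seeing the data, removal of CpG-dense windows kept both counts within 1.5 times.

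The mean difference stayed between 0.502 and 0.621 points under every alternative run, the highest with the deposited fractions, and that of intronic windows between 0.533 and 0.641 and of intergenic windows between 0.402 and 0.557. Of 166 alternative values for named windows, 8 had the other sign, in 4 windows named for their CpG number (CTIF, CYP2F1, RNU4-67P and TIFAB) and between -0.557 and 0.0581 points. The 94 values of windows that met the rule kept their direction. Of the 28 named windows, 2 had no value at 20 reads and none had one in shifted windows. Weighting a gene's windows equally, added after seeing the data, turned the direction of INF2, ZBTB4 and GRIN1. The 4 called CpGs became 5 with no minimum difference, 5 at 20 reads and 4 at equal depth. No paired analysis was possible because each group holds 1 library, and for the same reason no library could be left out. Few single windows passed the 95% counting interval with shared reads. It excluded zero for 13 of the 433, and for 16 (0.0657%) of all 24335 shore windows. That interval is wide, since it takes each read as covering the whole window. Whether depth or this choice of error set the limit was not tested.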

Other observations

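Some genes held several shore windows that met the rule of size, and these were singled out after their values were seen. Of 403 genes with such a window, 31 had at least 2: in 10 all were higher, in 4 all were lower and in 17 both directions occurred. GALNS, which encodes a lysosomal sulfatase, had adjacent intronic windows at 88.7% and 89.8% in the Mdivi-1 library, against 64.8% and 63.0% in the DMSO library, over 6 and 5 CpGs. Their mean coverage was 16.8 and 24.4 reads in the Mdivi-1 library and 13.5 and 14 reads in the DMSO library. TCEA3, a transcription elongation factor gene, had adjacent windows at 12.2% and 8.47% in the Mdivi-1 library, against 23.9% and 19.7% in the DMSO library, over 3 and 4 CpGs. The TCEA3 windows (chr1:23748970-23748999 and chr1:23749010-23749104) are parted only by a window boundary. The same reads can cover both, so they do not count as independent windows. Other adjacent windows that met the rule went in opposite directions. Mdivi-1 minus DMSO was 10.1 and -10.5 points in ARRDC1, and -11.6 and 13.8 points near GSX2. It was 14.7 and -10.1 points in GRIK5, and 19.7 and -15.1 points in the windows near RNU6-880P described above. SRRM3, a splicing regulator gene, had 3 higher windows, and MORN1 had 3 higher and 1 lower.

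Of 22 autosomes, 3 were also picked after their counts were seen. Chromosome 7 held 15 higher (0.926%) and 1 lower (0.0618%) of its 1619 shore windows, chromosome 19 held 14 higher (0.857%) and 18 lower (1.10%) of 1633, and chromosome 18 held 3 higher (0.629%) and 7 lower (1.47%) of 477. Over all shore windows the shares were 1.13% and 0.649%.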
